A study of Mus musculus with 84 samples.

Results

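C1qtnf6, Scarf1, Rftn2, Ppic and Klhl4 are 5 of the 41388 mouse genes counted in RNA-seq libraries of MLL-ENL and control blood progenitors. They were selected on measured values, because each was lower in MLL-ENL or MLL-ENL (x2) libraries than in controls in several populations. The differences between genotypes are therefore given as descriptions, without tests, and the values of all 5 genes are followed through all 22 groups. C1qtnf6 was lower without overlap of the libraries in 9 of 11 comparisons of MLL-ENL with control, Klhl4 in 6, Ppic and Scarf1 in 5 each, and Rftn2 in 4. The count for C1qtnf6 includes P0 HPC, where the highest MLL-ENL library held 14.7 CPM and the lowest control 14.8. None of the 5 was lower without overlap after adult induction. Klhl4 was the 1 gene whose MLL-ENL libraries were also higher than all controls in some populations, in pGM and GMP of newborns.

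The 84 libraries, 43 control and 41 MLL-ENL, came from progenitors of mice and hold 7619548 to 29470074 counts each. Committed hematopoietic progenitors (HPC), pre-granulocyte-monocyte progenitors (pGM) and granulocyte-monocyte progenitors (GMP) were taken from neonatal liver at P0 and from bone marrow at 10 weeks. These animals had no doxycycline and are described as fetal induction, with controls labelled wild type. A separate 10-week set compared MLL-ENL (x2) with its own controls, and HPC of bone marrow were taken at 6 and 12 months after 8 weeks of doxycycline, described as adult induction, in both genotypes. The genotype label of the x2 libraries is MLL-ENL. The sources used here do not say what x2 stands for or what drives the transgene. Each group held 4 libraries, except 3 for P0 pGM controls and 3 for each x2 group. The labels do not say that libraries of a group came from separate animals, so p-values measure only the spread between these libraries. Newborn cells came from liver and older cells from marrow, so age and tissue cannot be told apart.

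MLL-ENL joins the chromatin regulator MLL (KMT2A) to ENL (MLLT1), a reader protein of transcription elongation complexes. It is known for sustaining transcription of genes such as Hoxa9 and Meis1 in leukemia. The 5 genes here belong to no single pathway. C1qtnf6 encodes a secreted relative of adiponectin with a C1q and TNF type domain. Scarf1 encodes a scavenger receptor of class F that binds modified low-density lipoprotein, and Rftn2 encodes a protein of the raftlin family, which associates with lipid rafts. Ppic encodes cyclophilin C, a peptidyl-prolyl isomerase that binds cyclosporin. Klhl4 encodes a kelch-like protein with a BTB domain, a family that includes substrate adaptors of cullin ubiquitin ligases.

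In the GENCODE vM21 annotation of GRCm38, C1qtnf6 (ENSMUSG00000022440) lies on chromosome 15 from 78523346 to 78531416, on the minus strand. Scarf1 (ENSMUSG00000038188) lies on chromosome 11 from 75513540 to 75526582, plus strand. Rftn2 (ENSMUSG00000025978) lies on chromosome 1 from 55170159 to 55226782, minus strand. Klhl4 (ENSMUSG00000025597) lies on chromosome X from 114474333 to 114560829, plus strand. All are protein-coding. The antisense genes Gm49490 and Gm10561 overlap C1qtnf6 and Rftn2, and the processed pseudogene Gm14895 lies within Klhl4. Whether the counting used strand is not stated, so reads of a gene and its antisense partner cannot be told apart.

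The promoters of C1qtnf6 and Klhl4 are shown because these genes had the lowest levels relative to control in all 6 comparisons at 10 weeks, yet differed in newborns, where C1qtnf6 was lower and Klhl4 higher. The sequences are the 250 bases before the start of each gene in RefSeq, build GRCm38.p6, at chr15:78529652-78529901 on the minus strand and chrX:114474083-114474332 on the plus strand. Each is read along its gene, and capitals mark matches to 6 motifs searched on both strands: TGATTTAT for HOX with MEIS, TGATTGAT for HOX with PBX, TGACAG for MEIS, AGATAA for the GATA family, GGAAGT for ETS and TGTGGT for RUNX factors.
C1qtnf6: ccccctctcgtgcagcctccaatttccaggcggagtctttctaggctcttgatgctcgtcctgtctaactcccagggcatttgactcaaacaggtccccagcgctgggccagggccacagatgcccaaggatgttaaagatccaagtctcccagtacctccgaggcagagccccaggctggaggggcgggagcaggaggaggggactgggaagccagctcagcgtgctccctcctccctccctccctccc
Klhl4: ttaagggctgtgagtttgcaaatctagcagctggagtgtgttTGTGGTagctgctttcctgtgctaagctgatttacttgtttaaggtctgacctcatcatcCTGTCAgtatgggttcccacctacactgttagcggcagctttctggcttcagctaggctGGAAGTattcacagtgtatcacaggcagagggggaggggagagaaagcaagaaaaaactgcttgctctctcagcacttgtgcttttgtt
The C1qtnf6 window lies upstream of most annotated transcripts and within the first intron of a longer one, and the Klhl4 window directly upstream of the gene. The C1qtnf6 window held none of the 6 motifs, and the Klhl4 window held 3. They are a RUNX match at base -208 from the start, a MEIS match on the other strand, read here as CTGTCA at -148, and an ETS match at -89. Among 32851 promoters of the same length, 14% held the RUNX letters, 15.9% MEIS, 19.7% ETS, 9.99% GATA, 0.837% those of HOX with MEIS and 0.67% those of HOX with PBX. No match overlapped another. The shorter motifs MYB (AACNG) and E-box (CANNTG), in 74.2% and 66.2% of promoters, were left in lower case. C1qtnf6 held 1 MYB and 2 E-box matches, and Klhl4 2 of each. The C1qtnf6 window held 7 CpG and 62.8% G and C, against 1 CpG and 47.6% for Klhl4, where the median promoter held 6 CpG. A match is a description of letters, and its absence says nothing about a factor.

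Reads of the human fusion transgene served to check the labels. The highest control library held 0.62 transgene counts per 1000000 mouse counts, and 40 of 41 MLL-ENL libraries were above it (lowest 0.44). The mean transgene level was 15.57 ± 3.87 (SD, n = 4) in P0 HPC, 10.65 ± 1.4 in P0 pGM and 5.03 ± 2.38 in P0 GMP. At 10 weeks it was 4.62 ± 1.92, 3.0 ± 2.23 and 1.77 ± 1.74 in the same order, and in x2 cells 10.92 ± 3.29, 7.56 ± 2.30 and 6.88 ± 3.90 (n = 3). At 6 and 12 months it was 2.46 ± 1.21 and 4.04 ± 1.25. The 10-week MLL-ENL libraries 73 labelled HPC and pGM go against their labels. The library labelled 73 HPC held 17.5 CPM (counts per 1000000 of TMM-scaled library size) of the stem-cell antigen gene Ly6a and 17800 CPM of the granule enzyme gene Mpo, against at least 174 and at most 3060 in the other 10-week HPC libraries outside the x2 set. The library labelled 73 pGM held 203 CPM of Ly6a and 2530 of Mpo, against at most 29.0 and at least 14000 in the other 10-week pGM libraries outside the x2 set. Both were kept. In 10-week controls, the sum of 12 stem and multipotent markers was 1570 to 2010 CPM in HPC, 709 to 866 in pGM and 130 to 289 in GMP, and that of 10 granulocyte-monocyte markers 2560 to 4380, 16400 to 25000 and 89300 to 114000.

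**Figure D1:**
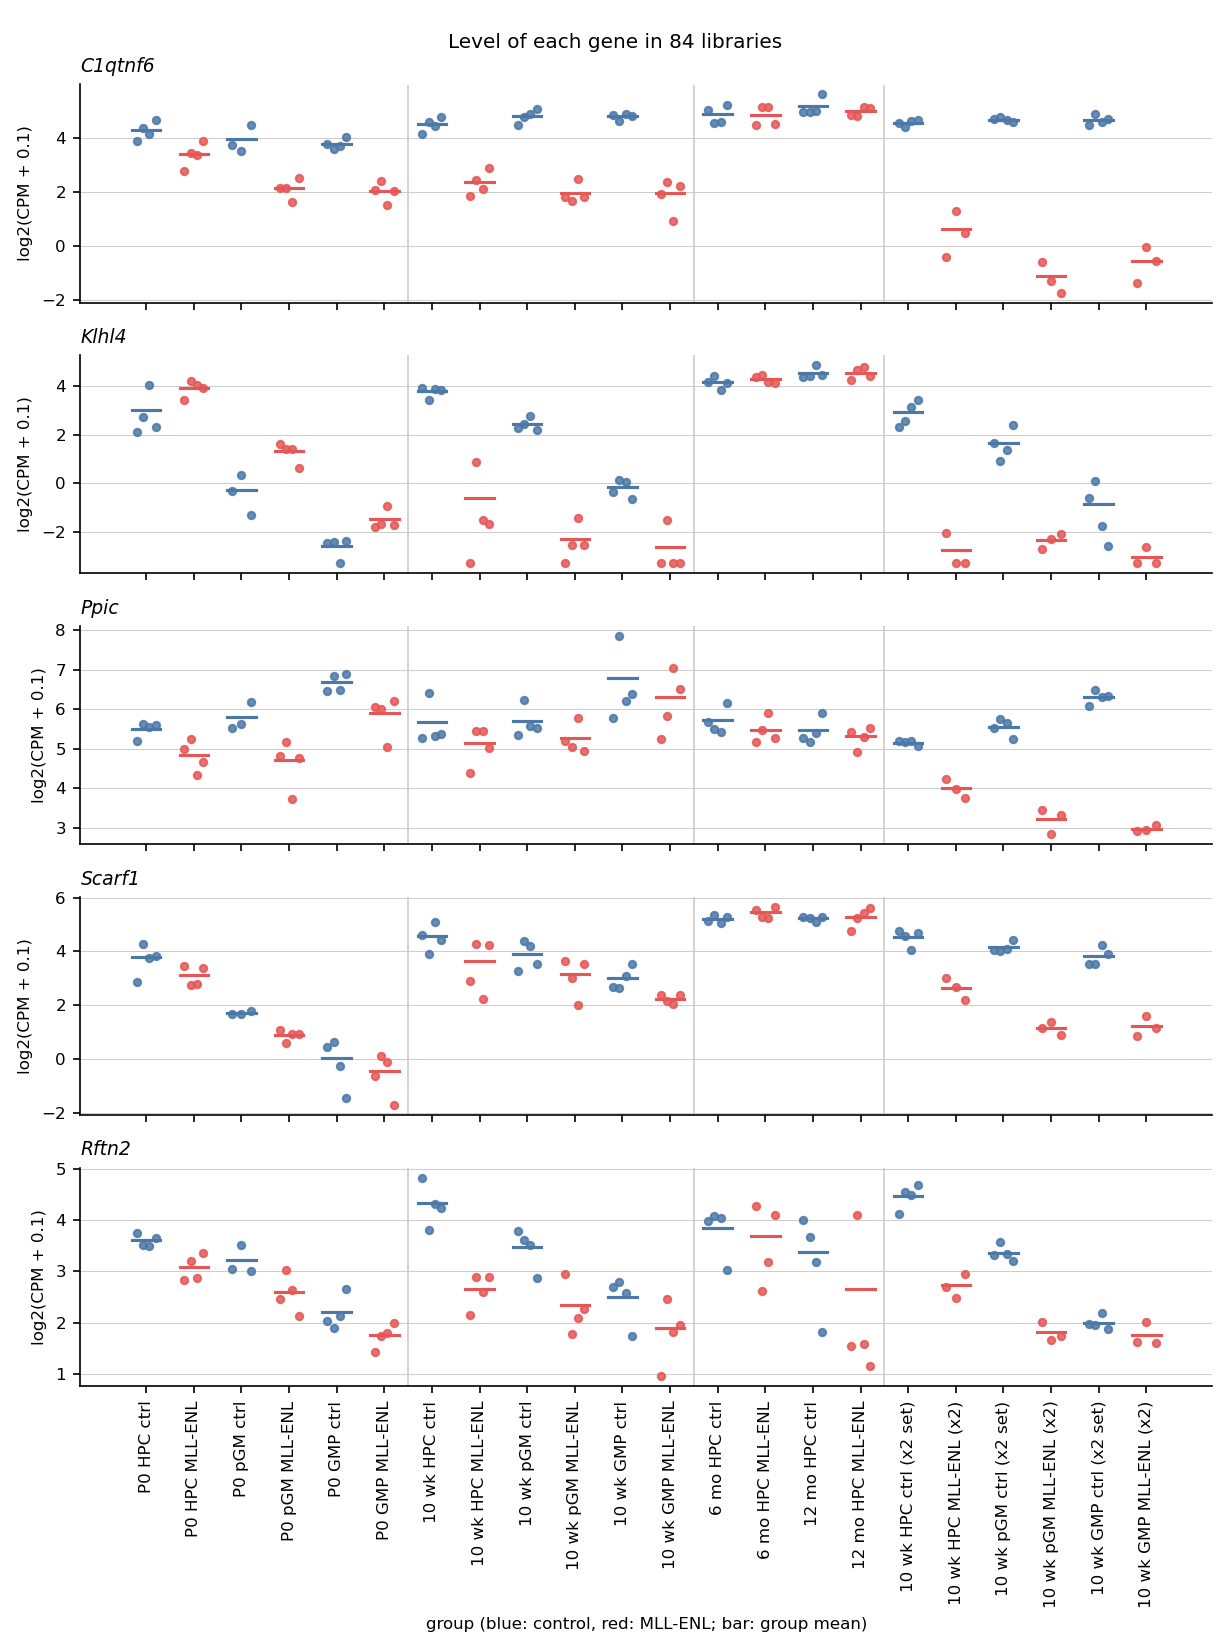
Level of each gene in every library, as CPM with 0.1 added on a log axis, by group (points are libraries, short lines group means). C1qtnf6 lies between 11.4 and 49.4 CPM in all control libraries and below 1 CPM in all x2 pGM and GMP libraries.

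C1qtnf6, the secreted member, was lower in every fetal-induction comparison. In 10-week pGM, control libraries held 22.5, 27.6, 29.7 and 33.5 CPM and MLL-ENL libraries 3.45, 3.05, 5.51 and 3.41. In 10-week GMP, controls held 28.7, 25, 29.6 and 28.6 CPM against 3.70, 5.08, 1.78 and 4.53. All MLL-ENL libraries of both populations were thus far below the lowest control, with means at 13.6% and 13.5% of control. The log2 differences were -2.88 ± 0.27 (SE) in pGM and -2.86 ± 0.28 in GMP, beside -2.15 ± 0.27 in HPC.

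The x2 libraries held the lowest levels of C1qtnf6. In x2 HPC the 3 libraries held 0.648, 2.38 and 1.29 CPM against 23.6, 21.4, 25 and 25.6 in controls. In x2 pGM they held 0.572, 0.308 and 0.202 CPM against 26.4, 27.3, 25.4 and 24, and in x2 GMP 0.284, 0.888 and 0.588 against 22.6, 29.6, 24.2 and 26.5. The means were 6.04%, 1.4% and 2.28% of control in HPC, pGM and GMP. The log2 differences were -4.08 ± 0.33, -6.10 ± 0.39 and -5.41 ± 0.37. The x2 cells and the other 10-week cells were normalized and fitted separately, and the difference between their effects was not tested.

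In newborn HPC the C1qtnf6 libraries barely separated. Controls held 14.8, 20.7, 18.0 and 25.7 CPM and MLL-ENL libraries 6.84, 10.9, 10.4 and 14.7, a log2 difference of -0.88 ± 0.25. In P0 pGM, controls held 13.5, 11.4 and 22.5 CPM against 4.33, 4.33, 3.04 and 5.62. In P0 GMP, controls held 13.7, 11.9, 13.1 and 16.4 CPM against 4.15, 5.30, 2.74 and 4.0. Both populations separated fully, at 27.4% and 29.4% of the control mean. After adult induction the libraries overlapped: at 6 months controls held 33.2, 23.6, 24.2 and 37.9 CPM against 22.6, 36.0, 35.3 and 22.7, a log2 difference of -0.03 ± 0.19. At 12 months controls held 31.5, 31.5, 32.4 and 49.4 against 29.2, 28.0, 35.8 and 34.5, a difference of -0.18 ± 0.19.

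Scarf1, the scavenger receptor, separated in all 3 x2 populations. In x2 HPC it was at 7.91, 6.22 and 4.48 CPM against 27.0, 23.5, 16.6 and 25.6 in controls, a log2 difference of -1.90 ± 0.25. In x2 pGM it was at 2.13, 2.51 and 1.75 CPM against 16.5, 16.2, 16.9 and 21.3 (-3.04 ± 0.27). In x2 GMP it was at 1.70, 2.90 and 2.13 CPM against 11.4, 11.5, 18.9 and 15 (-2.65 ± 0.27). The means were 26.8%, 12.0% and 15.8% of control.

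In the other 10-week cells Scarf1 varied more between libraries. In HPC, MLL-ENL libraries held 7.39, 19.3, 4.60 and 18.7 CPM against 24.2, 14.7, 33.8 and 21.1, and control 80 lay below 2 of them. In pGM they held 12.4, 7.88, 3.91 and 11.5 CPM against 9.52, 21.1, 18.2 and 11.4, and the groups overlapped too. In GMP they held 5.09, 4.33, 4.01 and 5.14 CPM against 6.24, 6.17, 8.48 and 11.4, with no overlap. The log2 differences were -0.91 ± 0.37, -0.75 ± 0.37 and -0.79 ± 0.38. At P0 Scarf1 separated in pGM alone, with controls at 3.13, 3.07 and 3.31 CPM and MLL-ENL libraries at 2.02, 1.43, 1.78 and 1.83. The log2 differences at P0 were -0.64 ± 0.37 in HPC, -0.85 ± 0.43 in pGM and -0.49 ± 0.51 in GMP. At 6 and 12 months they were 0.24 ± 0.15 and 0.06 ± 0.15, with all libraries between 27.2 and 50.2 CPM.

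Rftn2, the raftlin relative, had its largest 10-week differences in HPC, in both sets. In 10-week HPC, controls held 28.1, 13.8, 19.9 and 18.6 CPM against 4.35, 7.33, 5.92 and 7.30, a log2 difference of -1.69 ± 0.27 and 31.0% of the control mean. In 10-week pGM, controls held 13.7, 12.1, 11.3 and 7.20 CPM against 7.57, 3.34, 4.17 and 4.74 (-1.15 ± 0.27). These groups overlapped only through the library labelled 73 pGM, at 7.57 CPM. In 10-week GMP the difference was -0.62 ± 0.28 and the libraries overlapped.

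In x2 HPC, Rftn2 was at 6.38, 5.49 and 7.66 CPM against 17.2, 23.2, 22.3 and 25.7 (-1.76 ± 0.21). In x2 pGM it was at 3.95, 3.08 and 3.24 CPM against 9.93, 11.8, 9.96 and 9.13 (-1.57 ± 0.21). In x2 GMP it was at 2.98, 3.97 and 2.94 CPM against 3.81, 3.76, 4.48 and 3.57, and 1 x2 library lay above 3 controls. That x2 GMP difference was -0.24 ± 0.21, and -0.44 when all 10-week controls were pooled. In P0 HPC, controls held 13.4, 11.3, 11.2 and 12.5 CPM against 7.07, 9.15, 7.17 and 10.1, with no overlap (-0.53 ± 0.27), and P0 pGM and GMP overlapped at -0.61 ± 0.29 and -0.46 ± 0.29. Same-numbered P0 libraries deviated together in pGM and GMP (lowest r 0.18 and 0.22), although the labels state no pairing. Rftn2 was lower in MLL-ENL in 3 of 3 such pairs in pGM and 4 of 4 in GMP. In GMP, Scarf1 was lower in 3 of 4 of these pairs. The pair counts reuse contrasts that chose the genes and are descriptions.

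Rftn2 was the most uneven of the 5 genes after adult induction. At 12 months controls held 16, 12.5, 8.96 and 3.45 CPM and MLL-ENL libraries 2.84, 17.0, 2.90 and 2.13. The difference was -0.71 ± 0.68, and without MLL-ENL library 9125 it was -1.96 with no overlap. At 6 months controls held 15.7, 16.9, 16.3 and 8.04 CPM against 19.2, 6.04, 9.0 and 17.1 (-0.15 ± 0.65). High and low libraries occurred in both genotypes at both ages, and they followed the sex-linked transcripts. Libraries with Ddx3y, a gene of the Y chromosome, and no Xist held 16.9, 16.3, 19.2 and 17.1 CPM of Rftn2 at 6 months, against 8.04, 6.04 and 9.0 in those with Xist and no Ddx3y. At 12 months the values were 16, 12.5 and 17.0 CPM with Ddx3y, the last being MLL-ENL library 9125, against 3.45, 2.84, 2.90 and 2.13 without. Control libraries 1618 and 9806, which held both transcripts, were at 15.7 and 8.96 CPM. Leaving out 9125 therefore left only MLL-ENL libraries without Ddx3y, beside 4 controls of which 3 held it. Among 12-month libraries without Ddx3y, the MLL-ENL values of 2.13 to 2.90 CPM stood against 3.45 in the single control. In 10-week HPC, Rftn2 was lower in MLL-ENL both with Ddx3y (4.35 and 7.33 against 28.1 and 19.9 CPM) and without it (5.92 and 7.30 against 13.8 and 18.6). C1qtnf6 at 6 months was at 23.6, 24.2, 22.6 and 22.7 CPM with Ddx3y alone and 37.9, 36.0 and 35.3 with Xist alone. At 12 months its values overlapped, at 31.5, 31.5 and 28.0 CPM against 49.4, 29.2, 35.8 and 34.5. Among x2-set HPC controls, 4892 with Ddx3y held 17.2 CPM of Rftn2, below 23.2, 22.3 and 25.7 in those with Xist. Of the x2 libraries, 5293 and 5897 held Ddx3y and 5900 held Xist. The part of sex in these levels was not tested.

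Ppic, the cyclophilin, was the most abundant of the 5 genes per length of exon. Ppic (ENSMUSG00000024538) is protein-coding and lies on chromosome 18 from 53406332 to 53418115, minus strand, in the same annotation. In 10-week HPC controls it stood at 36.5 CPM per kilobase of exon, against 8.44 for C1qtnf6, 8.13 for Scarf1, 3.83 for Klhl4 and 3.42 for Rftn2. In x2 GMP, Ppic was at 7.45, 7.58 and 8.31 CPM against 67.1, 88.9, 79.5 and 80.3, which is 9.85% of the control mean and a log2 difference of -3.34 ± 0.19. In x2 pGM it was at 11, 7.07 and 9.98 CPM against 46.4, 53.7, 50.1 and 37.8 (-2.33 ± 0.18). In x2 HPC it was at 18.7, 15.8 and 13.5 CPM against 36.5, 35.8, 36.9 and 33.3 (-1.15 ± 0.17). All 3 populations separated fully.

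In the other 10-week cells Ppic did not separate. Control library 80 was high in all 3 populations, at 84.7, 75.5 and 230 CPM, where the other controls held at most 41.3, 47.6 and 83.6. The log2 differences of -0.54, -0.44 and -0.48 (SE 0.36 each) became -0.19, -0.22 and 0.15 without it. In P0 pGM, controls held 45.7, 49.1 and 72.4 CPM against 28.1, 35.8, 13.3 and 27.2, with no overlap (-1.09 ± 0.38). In P0 GMP, controls held 88.1, 114, 90 and 117 CPM against 66.1, 64.3, 33.1 and 74.2, again with no overlap (-0.79 ± 0.36). P0 HPC overlapped, at -0.65 ± 0.36, and so did 6 and 12 months, at -0.24 ± 0.20 and -0.16 ± 0.20.

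Klhl4, the kelch-like gene, went in opposite directions at the 2 fetal-induction ages. In 10-week HPC, controls held 15.3, 10.8, 14.6 and 14.3 CPM and MLL-ENL libraries 0, 1.72, 0.247 and 0.213, so the mean was 3.97% of control. In 10-week pGM, controls held 4.82, 5.30, 6.77 and 4.44 CPM against 0, 0.071, 0.266 and 0.070. In 10-week GMP, controls held 0.677, 0.983, 0.942 and 0.527 CPM against 0, 0.25, 0 and 0. All 3 populations separated fully, on few reads in the MLL-ENL libraries.

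The reads behind these MLL-ENL values of Klhl4 were 30 in HPC, 5 in pGM and 3 in GMP, against 858, 379 and 39 in controls. The ratio of control to MLL-ENL counts, each per TMM-scaled library size, was 59.1 in pGM (exact 95% interval 25.1 to 183) and 11 in GMP (3.48 to 55.4). These intervals cover counting error only. The fitted log2 differences were -4.64 ± 0.57, -5.74 ± 0.70 and -3.32 ± 0.88. Library 74 held most of the HPC reads, and without it the HPC difference was -6.35. Without library 74 the GMP difference was -6.50, and without library 78 the pGM difference was -6.65.

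In x2 cells Klhl4 was close to 0 throughout. In x2 HPC, the 3 libraries held 0.139, 0 and 0 CPM against 4.93, 5.78, 8.65 and 10.9 in controls. In x2 pGM they held 0.052, 0.103 and 0.135 CPM against 3.02, 1.76, 2.48 and 5.12. In x2 GMP they held 0, 0.059 and 0 CPM against 0.554, 0.965, 0.192 and 0.066, so the lowest control exceeded the highest x2 library by a narrow margin. The count ratios were 136 (46.3 to 662) in HPC, 32.4 (13.7 to 101) in pGM and 21.4 (3.57 to 871) in GMP, from 3, 5 and 1 reads in x2 cells. The fitted differences were -6.97 ± 0.84, -4.93 ± 0.78 and -3.98 ± 1.11, and the first became -10.0 without library 5293 and the last -6.00 without library 5897.

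In newborns Klhl4 was higher in MLL-ENL libraries. In P0 HPC, controls held 4.20, 6.48, 16.5 and 4.96 CPM against 10.9, 18.4, 16.7 and 15.2, and control 4 lay among the MLL-ENL libraries (log2 difference 0.92 ± 0.46). In P0 pGM, controls held 0.689, 1.16 and 0.301 CPM against 2.93, 2.59, 2.58 and 1.44, all MLL-ENL libraries being higher (1.71 ± 0.59). In P0 GMP, controls held 0.080, 0.086, 0 and 0.090 CPM against 0.184, 0.212, 0.415 and 0.205, which rests on 3 reads against 12 (1.93 ± 1.01, and 1.49 without control 4). Klhl4 is X-linked, and the newborn libraries differed in Xist, the RNA of the inactive X: 42.4, 0.8, 14.6 and 0.2 CPM in HPC controls and 97.0, 40.2, 15.4 and 69.0 in MLL-ENL. Ddx3y stood at 36.7, 94.0, 58.8 and 101.0 CPM in the same controls and at 44.8, 26.2, 61.3 and 0.4 in MLL-ENL. Several of these libraries thus held both transcripts. The part of Xist level in the Klhl4 result was not tested. At 10 weeks each genotype outside the x2 set had 2 libraries with Xist and 2 without in each population. After adult induction Klhl4 lay between 14.2 and 29.2 CPM in both genotypes, with differences of 0.14 ± 0.16 at 6 months and 0.00 ± 0.16 at 12 months.

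**Figure D2:**
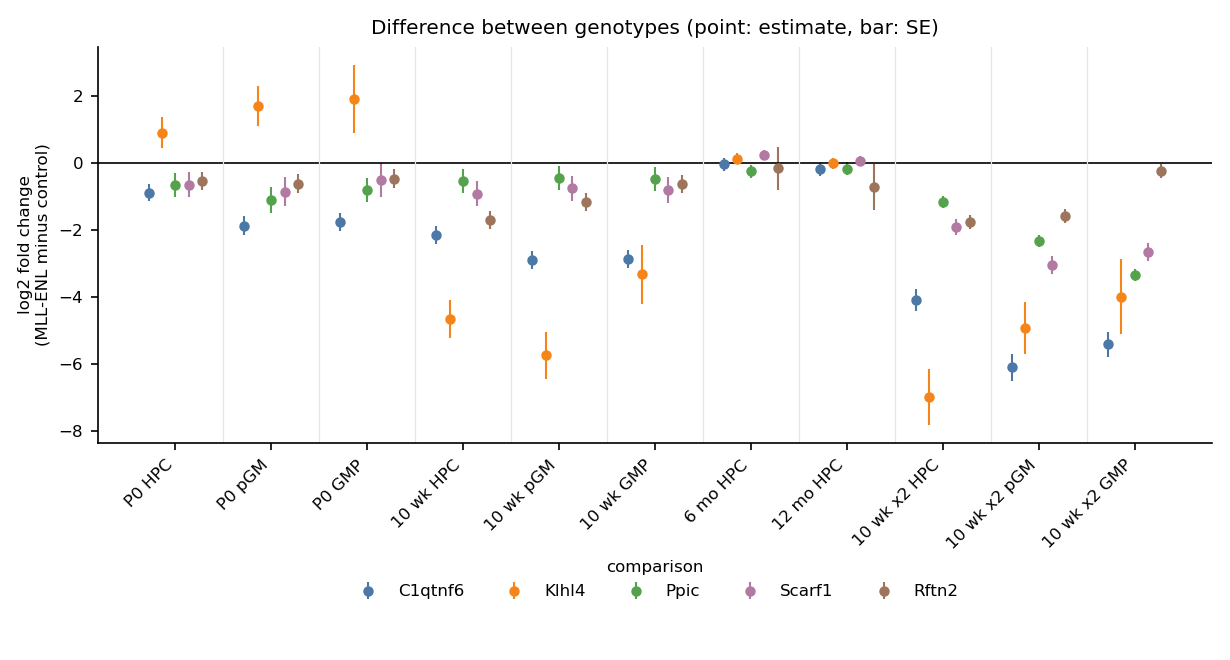
Log2 difference of MLL-ENL from control for each gene in the 11 comparisons (points are fitted values, bars 1 SE). The 5 genes lie below 0 in all 6 comparisons at 10 weeks, and Klhl4 lies above 0 at P0. At 6 and 12 months all lie between -0.24 and 0.24 except Rftn2 at 12 months (-0.71).

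Counted by comparison, 2 of the 5 genes were lower without overlap in P0 HPC, where 10.6% of all tested genes were. The count was 3 in P0 pGM (3.91% of all genes) and 2 in P0 GMP (1.78%). At 10 weeks it was 3 in HPC (0.839%), 2 in pGM (0.906%) and 3 in GMP (0.591%). In the x2 set it was 5 in HPC (4.08%), 5 in pGM (4.98%) and 4 in GMP (3.79%), the exception being Rftn2. After adult induction it was 0 at both 6 months (0.842%) and 12 months (1.42%). The genes were chosen on these contrasts, so nothing is read from these shares. The median log2 difference of the 5 was -0.64, -0.85 and -0.49 at P0, -1.69, -1.15 and -0.79 at 10 weeks, and -1.90, -3.04 and -3.34 in x2 cells, each in the order HPC, pGM, GMP. At 6 and 12 months it was -0.03 and -0.16, and the median of all tested genes lay between -0.03 and 0.01 throughout. Without both libraries labelled 73, the HPC differences at 10 weeks were -2.02 for C1qtnf6, -4.26 for Klhl4, -0.36 for Ppic, -0.74 for Scarf1 and -1.56 for Rftn2. In pGM they were -2.85, -5.30, -0.42, -0.95 and -1.44. In those fits, 3 genes were lower without overlap in 10-week HPC and 3 in pGM, where Rftn2 then joined.

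Markers of other cell types moved with genotype in some of these groups. In P0 HPC the summed level of 12 monocyte and dendritic markers was 13100 to 32400 CPM in controls and 2610 to 5080 in MLL-ENL, with all 12 above 1 CPM in both. The sum of 10 mast cell and basophil markers was 848 to 2640 against 181 to 257 CPM there, that of 10 granulocyte-monocyte markers 2800 to 4680 against 906 to 1920, and that of 12 stem and multipotent markers 1040 to 1620 against 1980 to 2740. The 10 megakaryocyte markers summed to 69.7 to 114 against 126 to 188 CPM in P0 HPC and to 57.0 to 69.9 against 90.2 to 124 in P0 pGM, with Gp6 at 0 in all 4 groups and Gp1bb at 0 in P0 HPC MLL-ENL. The 10 endothelium and stroma markers summed to at most 223 CPM in P0 HPC controls and to a median of 297 and at most 348 in MLL-ENL, without overlap, with Col3a1 and Cxcl12 at 0 in MLL-ENL. In P0 pGM the sum of 10 granulocyte-monocyte markers was 11200 to 18700 against 5280 to 10900 CPM, that of 10 erythroid markers 613 to 1110 against 1190 to 5900, that of stem markers 491 to 666 against 981 to 1120, and that of monocyte and dendritic markers 2000 to 3270 against 1240 to 1610. In 10-week pGM the 10 megakaryocyte markers summed to 86.2 to 106 against 46.6 to 73.4 CPM, with Gp6 at 0 in both groups, and in x2 pGM to 77.8 to 120 against 39.2 to 68.9. In 10-week HPC the 10 erythroid markers summed to 29.4 to 65.2 against 84.9 to 368 CPM. In x2 HPC the 12 stem markers summed to 1730 to 2100 against 2320 to 2640 CPM, the erythroid markers to 58.0 to 120 against 147 to 396, and the granulocyte-monocyte markers to 3710 to 4820 against 5290 to 7070. In x2 pGM the monocyte and dendritic markers summed to 1610 to 1960 against 2060 to 2320 CPM, and 10 hepatocyte markers to 32.2 to 34.8 against 42.2 to 51.9, with Alb, Ttr, Serpina1a and Fgb at 0 in both groups. None of these lists separated in 10-week GMP or x2 GMP, in P0 GMP, or after adult induction. The stem list includes Meis1, named above as a gene that MLL-ENL sustains, and its share of the stem sums was not separated. Ly6a, of the same list, overlapped between genotypes where the stem sums rose. Its median was 236.5 CPM in controls against 162.5 in P0 HPC and 283.5 against 238 in x2 HPC, but 10.3 against 11.8 in P0 pGM. The part of these markers in the results was not tested. In bulk libraries, fewer cells of a type and less RNA per cell cannot be told apart.

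The levels of the 5 genes along the progenitor series were tested in controls, where genotype plays no part, although control libraries also entered the choice of the genes. Control means of Klhl4, Scarf1 and Rftn2 were highest in HPC and lowest in GMP at both ages and in the x2 set, and those of Ppic were highest in GMP. Differences are log2 with SE, and adjusted p is from edgeR's quasi-likelihood F test with Benjamini-Hochberg adjustment over all genes. From HPC to pGM at P0, 2 of the 5 genes passed the test, both lower (7.71% of all genes passed in either direction): Klhl4 by -3.46 ± 0.60 (adjusted p = 0.00016) and Scarf1 by -2.10 ± 0.43 (0.0012). From pGM to GMP at P0, 3 passed, all lower (13.9% of all genes): Klhl4 by -3.40 ± 0.89 (0.0061), Scarf1 by -1.74 ± 0.46 (0.0065) and Rftn2 by -1.02 ± 0.29 (0.013). Without pGM control 3 of that step, Klhl4 was at -2.89 (0.065) and Rftn2 at -0.84 (0.11). The Ppic difference of 0.88 ± 0.39 in that step did not pass (0.15), and passed with replicate number as a block (0.92, 0.00068).

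At 10 weeks, Rftn2 alone passed from HPC to pGM, at -0.86 ± 0.27 (adjusted p = 0.041, with 6.17% of all genes called). It did not pass when any of HPC 76, 87 or 88 or pGM 80, 87 or 88 was left out (adjusted p 0.056 to 0.23), nor without a filter on low counts (0.071) or in a fit of the compared groups alone (0.053). It did pass with replicate identifier as a block (-0.87, 0.011) and with DESeq2 (0.017). Klhl4 was at -1.37 ± 0.47 there (0.073, and 0.00034 with replicate identifier as a block). From pGM to GMP, 3 passed of the 5 (15.7% of all genes): Klhl4 at -2.76 ± 0.54 (0.00023), Rftn2 at -0.99 ± 0.27 (0.009) and Ppic higher, at 1.08 ± 0.36 (0.033). Rftn2 there was at -0.80 (0.064) without GMP 88, and Ppic at 0.44 (0.46) without GMP 80. Ppic also did not pass without pGM 76 (0.12), 87 (0.078) or 88 (0.082), with no filter (0.072) or with the compared groups alone (0.084). It did pass with the block (0.9, 0.00058) and with DESeq2 (0.015). Scarf1 was at -0.64 (0.36) from HPC to pGM and at -0.90 from pGM to GMP (0.096, and 0.028 with the block).

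For Rftn2, Klhl4, Ppic and Scarf1 the controls of the x2 set gave the same directions. Scarf1 passed in neither step, at -0.39 ± 0.22 from HPC to pGM (adjusted p = 0.28) and -0.32 ± 0.22 from pGM to GMP (0.33). From HPC to pGM, Rftn2 passed at -1.11 ± 0.18 (adjusted p = 0.00022, with 12.2% of all genes called). Klhl4 was at -1.29 ± 0.49 (0.096) and Ppic at 0.40 (0.093), and both passed with the block (0.042 and 0.015). From pGM to GMP, 3 passed (22.6% of all genes): Rftn2 at -1.38 ± 0.19 (8.2e-06), Klhl4 at -2.73 ± 0.56 (0.00093) and Ppic at 0.75 ± 0.15 (0.00077). C1qtnf6 passed in none of the 6 steps (adjusted p 0.57 to 0.99), and 0 of 6 had an unadjusted p below 0.05 or passed with DESeq2. Its control means were 22.8 ± 4.21, 28.3 ± 4.60 and 28.0 ± 2.03 CPM (SD, n = 4) in HPC, pGM and GMP at 10 weeks.

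**Figure D3:**
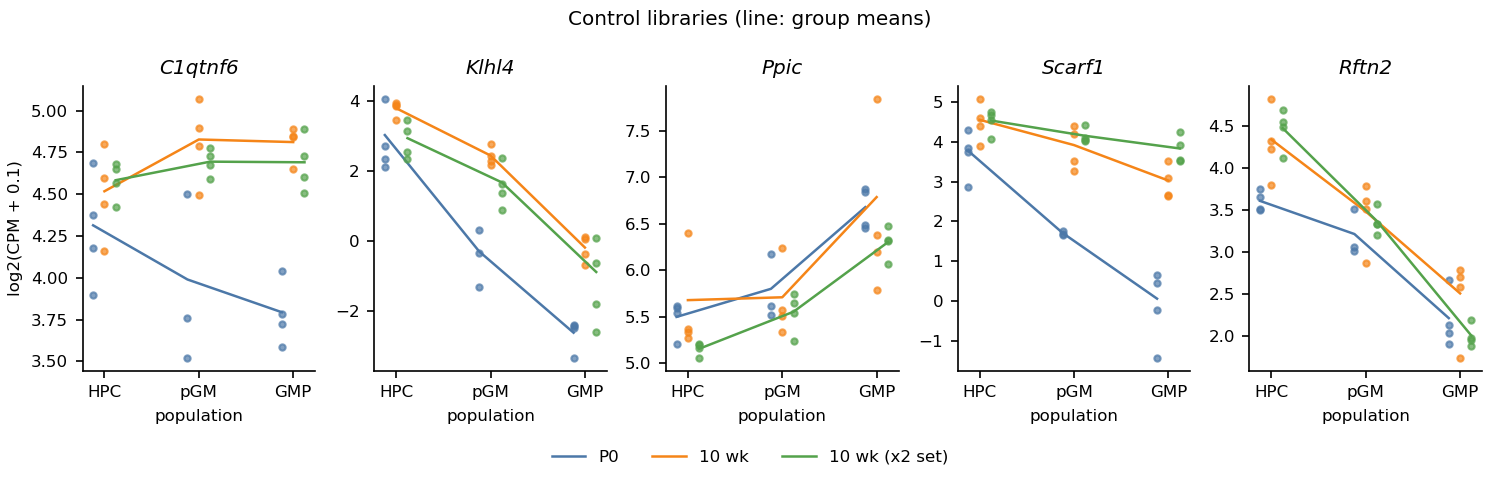
Control levels of the 5 genes in HPC, pGM and GMP at P0, at 10 weeks and in the x2 set's controls (points are libraries, lines group means, CPM with 0.1 added on a log axis). Klhl4 falls from 13.7 CPM in HPC to 0.782 in GMP at 10 weeks, while C1qtnf6 stays between 22.8 and 28.3.

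Between newborn liver and 10-week marrow, the control levels of several of these genes differed. The control libraries entered the choice of the genes here too, so these p-values are not free of that choice. Klhl4 was lower in MLL-ENL at 10 weeks but not at P0, so its choice favoured high control values at 10 weeks. In HPC none of the 5 passed in edgeR, where 16.1% of all genes did, 2 had an unadjusted p below 0.05 and 1 passed with DESeq2. That gene was Rftn2, at 0.74 ± 0.27 (adjusted p = 0.051, 0.038 with DESeq2 and 0.026 without control 80). In pGM, 3 were higher at 10 weeks (9.13% of all genes passed): Klhl4 by 2.87 ± 0.60 (0.00097), Scarf1 by 2.25 ± 0.44 (0.00043) and C1qtnf6 by 0.84 ± 0.27 (0.044). C1qtnf6 in pGM did not pass without P0 control 2 (0.15) or 3 (0.25), without 10-week control 87 (0.065) or 88 (0.081), with no filter on low counts (0.063) or with the compared groups alone (0.054). In GMP the same 3 were higher (12.1% of all genes): Scarf1 by 3.09 ± 0.44 (2e-06), Klhl4 by 3.51 ± 0.86 (0.0041) and C1qtnf6 by 1.02 ± 0.25 (0.0044). Klhl4 in P0 GMP controls rests on 3 reads over 4 libraries. Between 6 and 12 months, in HPC controls, none of the 5 passed in edgeR (adjusted p 0.22 to 0.95, with 0.659% of all genes called). There 1 had an unadjusted p below 0.05 and 0 passed with DESeq2.

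How often other genes were lower was counted over the 12895 genes tested in all 11 comparisons. MLL-ENL libraries lay below all controls in no comparison for 9564 genes, in 1 for 2510, in 2 for 614 and in 3 for 138. At least 4 comparisons were reached by 69 genes (0.535%), at least 5 by 31 (0.24%) and 9 by 2 (0.0155%), C1qtnf6 and Gpc3. As the 5 genes were chosen for this property, their place in the count is a description. The 11 comparisons share no library, but populations of one age carry the same replicate identifiers. Outside the 5, the most often lower genes were the glypican Gpc3 in 9 comparisons, the transcription factor Gata3 in 8, the secreted serpin Serpinf1 in 7, Il11ra1 in 7 and the endotoxin co-receptor Cd14 in 6. Their mean log2 difference over the 11 comparisons was -1.16, -1.39, -0.70, -0.57 and -2.55 in that order. Il11ra1 has near-identical copies in the mouse genome, so its counts are uncertain.

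**Figure D4:**
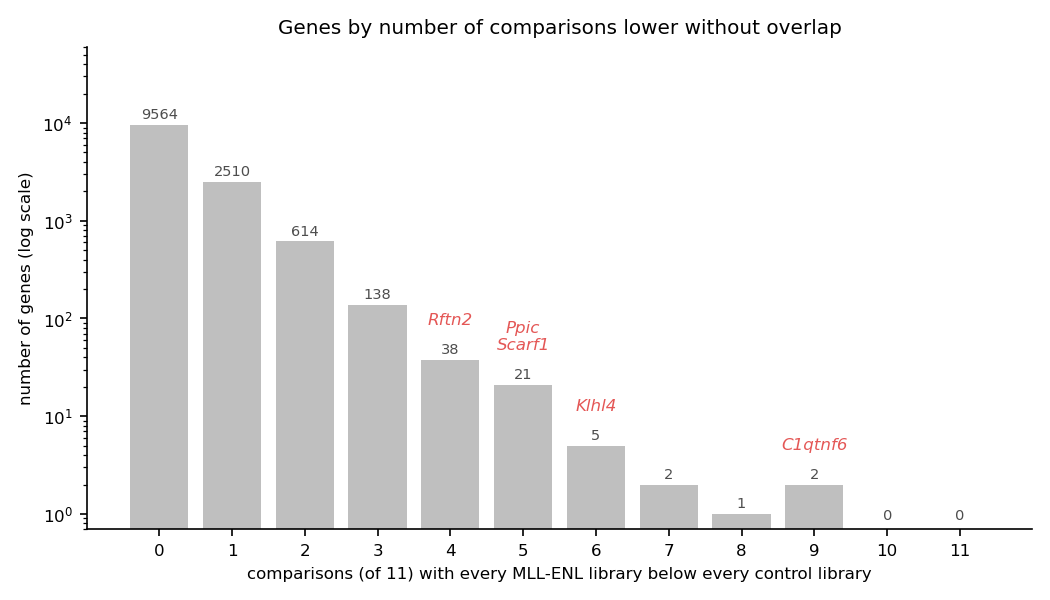
Number of genes (log axis) by how many of the 11 comparisons had all MLL-ENL libraries below all controls, over the 12895 genes tested in every comparison, with the 5 genes marked at their counts. C1qtnf6 stands at 9, Klhl4 at 6, Ppic and Scarf1 at 5 and Rftn2 at 4.

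Relatives of the 5 genes were examined to see whether their families moved with them. Of 113 listed relatives, 63 to 77 could be tested in each comparison of MLL-ENL with control. In 801 tests, 2 relatives passed as higher and 8 as lower, which is 1.25%, against 1.03% for all genes over the same comparisons. The share of all genes called was 7.54% in P0 HPC, 0.336% in P0 pGM and 0.114% in P0 GMP. It was 0.175%, 0.0873% and 0.0201% in HPC, pGM and GMP at 10 weeks, and 0.996%, 0.863% and 0.891% in the x2 set. At 6 and 12 months it was 0.00766% each.

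Among the C1q domain relatives of C1qtnf6, 4 of 91 tests passed, all of them the platelet protein gene Mmrn1. It was lower in P0 HPC (-1.83 ± 0.41, adjusted p = 0.0039), 10-week HPC (-2.96 ± 0.44, 0.0001), x2 HPC (-2.92 ± 0.47, 0.0012) and x2 pGM (-2.53 ± 0.49, 0.0078). In a fit of the compared groups alone, Mmrn1 in 10-week HPC did not pass (0.19), and in x2 pGM it did not pass without x2 library 5293 (0.066). With replicate number as a block, it also passed in P0 pGM (-1.45, 0.00035) and P0 GMP (-1.92, 0.009), beside C1qtnf7 (2.38, 0.042) and the scavenger receptor Stab2 (-2.65, 0.034) in P0 pGM. In 10-week HPC, Mmrn1 was at 46.7 ± 26.3 CPM in controls and 5.95 ± 3.81 in MLL-ENL (SD, n = 4). The scavenger receptors passed in 3 of 111 tests, all lower in P0 HPC: the chemokine and scavenger receptor gene Cxcl16 (-2.36 ± 0.60, 0.01), the fatty acid transporter Cd36 (-2.41 ± 0.63, 0.013) and the hemoglobin-haptoglobin receptor Cd163 (-1.68 ± 0.45, 0.014). Cd36 did not pass with DESeq2 (0.063), with the compared groups alone (0.06), or without control 2 or MLL-ENL library 3, 4 or 5 (0.059 to 0.067). Cd163 was lost without control 2 (0.078) or MLL-ENL library 5 (0.091), and Cxcl16 without MLL-ENL library 3 (0.051) or 4 (0.058). The monocyte and dendritic markers were lower in P0 HPC too, and also in P0 pGM, where no scavenger receptor passed in edgeR without a block. The part of these cells was not tested. The raft proteins passed in 2 of 110 tests, both in P0 HPC, with Erlin1 lower (-0.93 ± 0.16, 0.00013) and Flot1 higher (0.68 ± 0.17, 0.0091). The kelch-like family passed in 1 of 324, Klhl22 in P0 HPC (0.58 ± 0.16, 0.017, lost at 0.076 without control 5 and 0.074 without MLL-ENL library 2), and the cyclophilins in 0 of 165 in edgeR and in DESeq2, with 11 at an unadjusted p below 0.05.

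The nearest genes on each side were also followed, 3 upstream and 3 downstream of each of the 5. Of 30 neighbours, 20 or 21 could be tested, and 2 of 229 tests passed (0.873%). They were the sorting nexin gene Snx24 beside Ppic in x2 pGM (-1.91 ± 0.46, adjusted p = 0.049) and the mitochondrial chaperonin gene Hspd1 beside Rftn2 in P0 HPC (-0.63 ± 0.19, 0.036). Neither call was stable. Snx24 did not pass with the compared groups alone (0.13) or in 18 of 21 fits that left out 1 library (adjusted p up to 0.22, without x2 pGM library 5897). Hspd1 did not pass under RLE scaling (0.061), with no filter on low counts (0.08), or in 22 of 47 fits that left out 1 library (up to 0.14, without P0 HPC MLL-ENL library 2). No neighbour of C1qtnf6, Klhl4 or Scarf1 passed in edgeR or DESeq2, and 2, 0 and 0 of their 44, 22 and 55 tests had an unadjusted p below 0.05. With no filter on low counts, Pof1b beside Klhl4 passed in x2 pGM (6.56, 0.039).

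Likeness of pattern was measured as Pearson's r over the means of the 22 groups, on a log2 scale, among 11701 genes. For r, all 84 libraries were scaled together, and the genes passed the filter in each of the 3 sets. These points share libraries' depth, and r is a description. Scarf1 was closest to Eps8 (0.943), Batf2 (0.934) and Pls3 (0.932). Klhl4 was closest to Gpatch2l (0.885), Cyyr1 (0.885) and Shroom4 (0.882). C1qtnf6 was closest to Got1 (0.812), E2f7 (0.809) and Tmc4 (0.792), and Rftn2 to Obsl1 (0.814), Rcbtb1 (0.808) and Tmc4 (0.807). Ppic was closest to Usp5 (0.820), Ccdc47 (0.766) and Maoa (0.766). Among the 5 themselves r ranged from 0.14 for Ppic and Scarf1 to 0.74 for Klhl4 and Scarf1.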

How the data were processed

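RNA was measured as raw read counts per Ensembl gene, deposited by the authors in 1 table with a column for each of 84 libraries and rows for the human fusion transgene. STAR 3.0.4, Subread (version not given) and featureCounts 1.4.5 made these counts, per the submitters' processing notes. Build, annotation and strand setting were not stated. The labels name Qiagen and Clontech kits. Symbols were found for 40340 of 41388 gene identifiers, from GENCODE vM21 (GRCm38) or, for identifiers outside it, from a second list of gene names. GENCODE gave the coordinates, and RefSeq gave promoters.

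Libraries were grouped by title, tissue, age and genotype. P0 and 10-week libraries, the adult-induction libraries and the x2 set were scaled and fitted separately (47, 16 and 21 libraries with 14899, 13059 and 14260 genes). The x2 set's controls were told from the other 10-week controls by the form of the identifier in the title. edgeR 4.0.16 (R 4.3.3, limma 3.58.1) was run with filterByExpr, TMM scaling, a robust quasi-likelihood fit on 1 mean per group, and Benjamini-Hochberg adjustment over all genes of a fit, with a threshold of 0.05. CPM are counts per 1000000 of TMM-scaled library size. The rule for named genes covered all 5 genes, up to 4 genes per family list and of the neighbours past the test with the smallest p, the 3 genes most like each member (predicted gene models aside), and the 5 other genes most often lower, with ties by mean difference. The members and lists were chosen with earlier results of these data known.

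Replicate identifiers paired the control populations at 10 weeks and in the x2 set, since same-identifier deviations correlated at 0.19 or more in every pair. At P0 the lowest correlations were 0.07 from HPC to pGM and 0.18 from pGM to GMP, and 0.08, 0.18 and 0.22 between genotypes in HPC, pGM and GMP. Alternatives were RLE scaling, no filter, DESeq2 1.42.0, compared groups alone, a replicate block, a threshold of 0.10, pooled 10-week controls with set as a term, leaving out both libraries labelled 73, and leaving out each library. The steps were tested on simulated data. Summaries used scipy 1.17.1, numpy 2.4.6 and pandas 2.3.3 under Python 3.11.15, and plots matplotlib 3.10.9.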

Additional observations from a re-analysis of the deposited data

Results flagged for a closer look

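In 11 of 90 pairs of a gene and a group of 4 libraries, 1 library lay far from the rest, by Dixon's test at the 95% level. Chance gives about 1 in 20, but the genes share libraries, so the 90 pairs are not independent. C1qtnf6 was at 5.51 CPM in 10-week pGM MLL-ENL library 78, where the others held 3.05 to 3.45. It was at 49.4 CPM in 12-month control 9814, against 31.5 to 32.4. Klhl4 was at 0 in P0 GMP control 4 (others 0.08 to 0.09 CPM) and at 0.415 CPM in P0 GMP MLL-ENL library 4 (0.184 to 0.212), where 1 read is a large part of a value. MLL-ENL library 74 held 1.72 CPM of Klhl4 in 10-week HPC (0 to 0.247 in the others) and 0.25 in GMP, from 3 reads (all others 0). Control 80 held 84.7 CPM of Ppic in 10-week HPC (38.6 to 41.3) and 230 in GMP (55.3 to 83.6). Of the other 10-week controls outside the x2 set, 88 also held Xist and no Ddx3y, as 80 did. Scarf1 was at 21.3 CPM in pGM control 5899 of the x2 set (16.2 to 16.9). Rftn2 was at 8.04 CPM in 6-month control 1717 (15.7 to 16.9) and at 17 in 12-month MLL-ENL library 9125 (2.13 to 2.90). Library 1717 held 0.1 CPM of Ddx3y and 77.8 of Xist, where the other 6-month controls held 33.4 to 78.4 and 0.2 to 26.6. Library 9125 held 86.0 CPM of Ddx3y and 0.2 of Xist, where the others held 0.1 to 0.3 and 50.1 to 60.7.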

How the results depend on the processing

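Of 517 values that the 105 log2 differences of the 5 genes took under alternatives other than leaving out 1 library, 18 changed a call or moved. Among values called or without overlap, 0 changed sign. Near 0, C1qtnf6 from pGM to GMP at 10 weeks went from -0.02 to 0.02 with the compared groups alone, and Klhl4 at 12 months from 0.00 to -0.01 with RLE scaling and with DESeq2. The cause of each change was not tested, except where fewer libraries entered. Under RLE scaling, 1 neighbour test passed instead of 2 (Hspd1 was lost), and 1 gene was lower without overlap in P0 HPC instead of 2. Under TMM scaling, the nearest P0 HPC libraries of MLL-ENL and control stood at 14.7 against 14.8 CPM for C1qtnf6 and 10.1 against 11.2 for Rftn2. For the step from HPC to pGM in 10-week controls, 1 of the 5 genes passed. This became 0 with no filter on low counts, 2 with DESeq2 and 2 at an adjusted p of 0.10, and 0 to 1 when 1 library was left out. For the same step in the x2 set, 1 became 2 in a fit of the compared groups alone and 3 at 0.10. For HPC controls between P0 and 10 weeks, 0 became 1 with DESeq2, with the compared groups alone and at 0.10, and 0 to 1 on leaving out a library. Leaving out 1 library gave 1 to 3 genes from pGM to GMP at P0 in place of 3, and 1 to 2 neighbour tests. It gave 1 to 4 genes lower without overlap in P0 HPC (4 without control 2, 1 without MLL-ENL library 4) and 0 to 1 at 12 months (1 without MLL-ENL library 9125).

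With the replicate block, 2 of the 5 genes passed from HPC to pGM at 10 weeks and 3 in the x2 set, in place of 1 and 1. Tests passed by relatives went from 10 to 25 and by neighbours from 2 to 4. The last counts come from the P0 comparisons of genotype. Same-numbered HPC libraries correlated there at 0.08 to 0.44, and 3 of 4 matched their own number best. In the P0 step from HPC to pGM the values were 0.07 to 0.34 and 2 of 3, so pairing is uncertain in both. Klhl4 and Scarf1 had no blocked value in P0 GMP, where the filter removed them. Of the blocked values given beside the control steps, Rftn2 from HPC to pGM and Ppic from pGM to GMP at 10 weeks kept their calls. The others given there are all the blocked values of the 5 genes that changed a call. Depth limits Klhl4 most, with 12 reads or fewer per group in P0 GMP and in most MLL-ENL groups at 10 weeks.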
